A study of Mus musculus with 8 samples.

Results

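The 34 genes described here encode proteins of the ectoplasmic specialization and of cell adhesion in the testis. They were taken from a given list of symbols, matched to the gene names of the array's probes. The matching used no expression value, though the list was drawn up with earlier results of these data known. All 34 had at least 1 probe above background, among 26583 genes tested in all. The study measured RNA of whole testes from C57BL/6 mice on 8 one-colour Agilent arrays. The groups were Ip6k1-/- testes (knockout, both copies of Ip6k1 lost) at 26 dpp (days postpartum), wild type (Ip6k1+/+) testes at 26 dpp, Ip6k1-/- testes at 17 dpp and wild type testes at 17 dpp, with 2 arrays each. Knockouts and wild types were littermates from crosses of heterozygous parents, and the mice of the younger age had not yet been weaned. The labels name the 2 arrays of a group biological replicates but do not say whether each came from a single animal. The part of Ip6k1 that was removed is not given in the sources used here, and no tissue-specific Cre or transgene is named.

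The ectoplasmic specialization is a junction found only in the testis, where a Sertoli cell holds bundles of actin filaments beneath its membrane. At the base of the tubule it joins neighbouring Sertoli cells and forms part of the blood-testis barrier, and toward the lumen it anchors the heads of elongating spermatids to the Sertoli cell. Cadherins with their catenins, nectins with afadin, and integrins link the membranes, adaptor and bundling proteins hold the actin, and kinases and actin-branching proteins allow the junction to be taken apart and rebuilt as germ cells move past. Ip6k1 encodes an inositol hexakisphosphate kinase, an enzyme that makes inositol pyrophosphates.

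Levels below are log2 of a probe's signal relative to the 75th percentile of its array, so that a level of 0 equals that percentile, and levels of different probes are not set against each other. Ip6k1 itself lay at 1.41 and 1.31 in knockout against 2.79 and 2.77 in wild type testes at 26 dpp, and at 1.37 and 1.50 in knockout against 2.20 and 2.30 in wild type testes at 17 dpp. Both knockout arrays were below both wild type arrays at each age. Neither difference passed the test across all genes (−1.42, limma adjusted p = 0.516 at 26 dpp, and −0.82, adjusted p = 1 at 17 dpp). Whether the probe lies inside the removed part is not known. Replicate 2 of the knockout group at 26 dpp stood apart. Across all genes it correlated at 0.863 with the other knockout array of its age, and at 0.917 to 0.948 with the 4 arrays of 17 dpp, whereas the 3 other pairs of replicates correlated at 0.979 to 0.989. The counts, medians and member differences in knockout testes of 26 dpp rest on this array. The values without it are given with the counts for Ip6k1-/- testes, after the account of the members by role.

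With age, the members as a list were lower. In wild type testes 21 of the 34 members were lower at 26 than at 17 dpp, 2 were higher, and 11 did not pass (limma, adjusted p under 0.05 over all genes). In that comparison 45% of all genes passed, 26.1% lower and 18.9% higher. The share of members that passed lower was thus above that of all genes, and the share that passed higher was below it. Among these calls, Jup met the background filter only through the wild type group of 26 dpp, and Src only through the groups of 17 dpp. For both genes the call is thus not independent of the filter. The median log2 difference of the members was −1.49, against −0.46 over all genes tested, and 29 of the 34 members lay below 0, against 63% of all genes. The 2 wild type arrays of 26 dpp both lay below the 2 of 17 dpp for 29 members and above them for 3, where such a separation held for 56% and 32% of all genes. By an unadjusted p under 0.05, 26 members and 57.3% of all genes passed. The calls rest on all 4 wild type arrays. Leaving out any of them left 0 members passing in limma, with 17 to 23 at an unadjusted p under 0.05, and leaving out either knockout array of 17 dpp left 9. Leaving out either knockout array of 26 dpp gave 31.

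**Figure D1:**
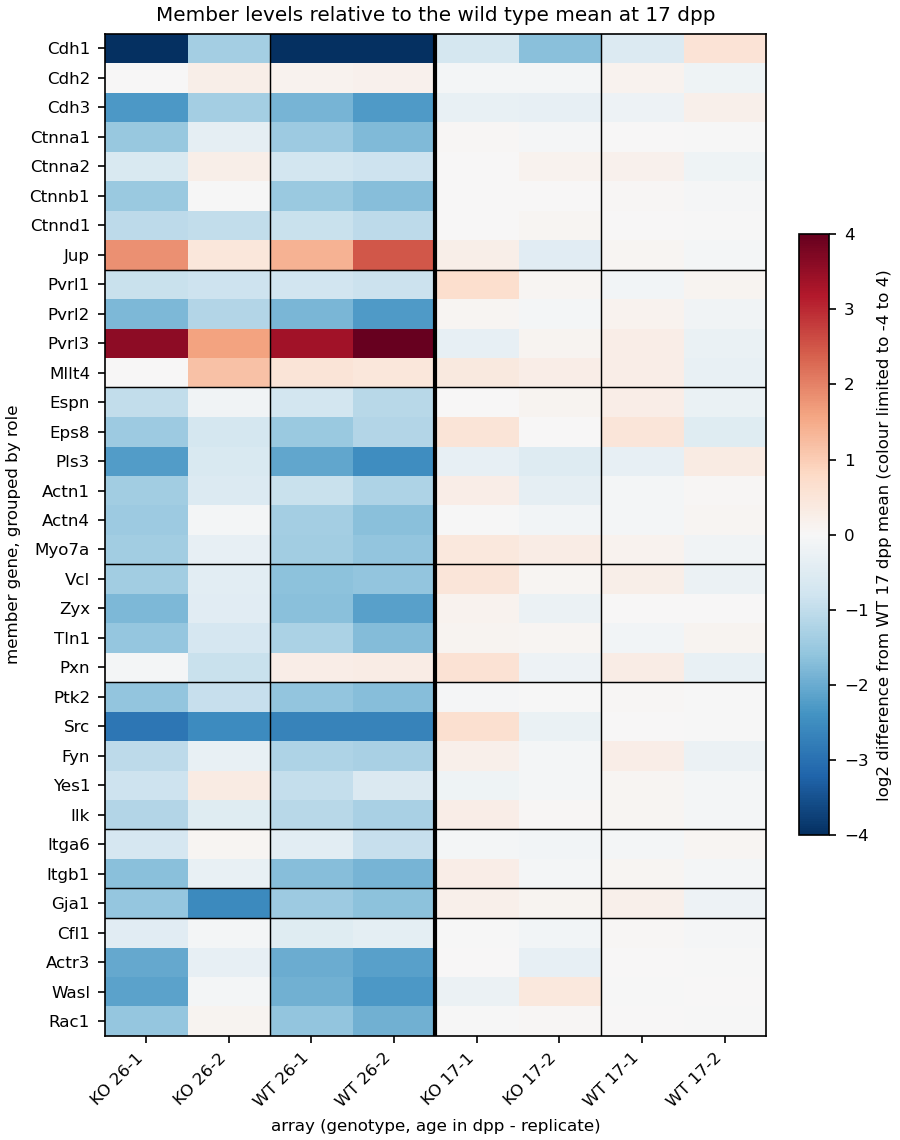
Log2 level of each of the 34 members (rows, grouped by role) on each of the 8 arrays (columns, KO for Ip6k1-/- and WT for wild type, age in dpp and replicate), as a difference from the wild type mean at 17 dpp. Blue cells mark lower and red cells higher levels, limited to −4 and 4. Most members are blue on both wild type arrays and on replicate 1 of the knockout at 26 dpp, Pvrl3 and Jup are red there, and replicate 2 of the knockout at 26 dpp is paler for most members.

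Whole testis holds all its cell types together, so fewer cells of a type and less RNA per cell cannot be told apart. Levels of marker lists are given beside the members for that reason. The summed linear level of 20 Sertoli cell markers, all 20 measured, was 332 and 715 in knockout and 340 and 303 in wild type testes at 26 dpp, against 790 and 737 in knockout and 814 and 775 in wild type testes at 17 dpp (in units of the array's 75th percentile). The median log2 level of these 20 markers was 2.23 and 2.22 in knockout and 2.59 and 2.09 in wild type testes at 26 dpp, against 3.56 and 3.26 in knockout and 3.56 and 3.57 in wild type testes at 17 dpp. Replicate 2 of the knockout at 26 dpp thus lay near the younger arrays by the sum and with the older arrays by the median. In wild type testes 15 of the 20 passed as lower with age and none as higher, with a median difference of −1.72. The members' own sum was 135 and 247 in knockout and 140 and 126 in wild type testes at 26 dpp, against 308 and 284 in knockout and 304 and 293 in wild type testes at 17 dpp. The 16 elongating spermatid markers, all measured, summed to 916 and 1.25 in knockout and 617 and 1690 in wild type testes at 26 dpp, and to 1.09 and 1.08 in knockout and 0.802 and 0.803 in wild type testes at 17 dpp. Spermatogonial markers (14 of 14 measured) summed to 45.2 and 139 in knockout and 44.1 and 41 in wild type testes at 26 dpp, against 161 and 121 in knockout and 118 and 124 in wild type testes at 17 dpp. Sertoli cell and spermatogonial markers were thus present on every array. Peritubular myoid markers (10 of 10 measured) summed to 43.5 and 62.8 in knockout and 47.3 and 45.9 in wild type testes at 26 dpp, against 80.7 and 71.9 in knockout and 86.9 and 109 in wild type testes at 17 dpp. Endothelial markers (10 of 10 measured) summed to 7.89 and 8.09 in knockout and 8.74 and 8.16 in wild type testes at 26 dpp, against 18.6 and 16.6 in knockout and 13.9 and 20.8 in wild type testes at 17 dpp. In wild type testes 7 of the 10 myoid and 8 of the 10 endothelial markers passed as lower with age and 0 of either as higher. Macrophage markers (10 of 13 measured) passed as higher for 2 and as lower for 0, and Leydig cell markers (9 of 10 measured) as higher for 1 and as lower for 2. The part of these cell types in the members' differences was not tested.

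**Figure D2:**
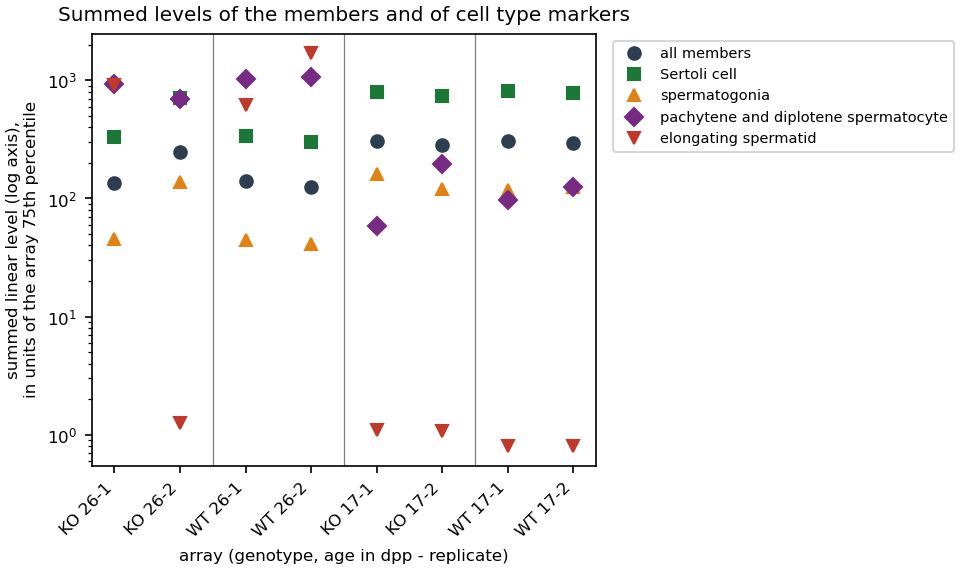
Summed linear level (log axis, in units of the array's 75th percentile) of the 34 members and of 4 marker lists on each array, KO for Ip6k1-/- and WT for wild type. The members and the Sertoli cell markers are lower on both wild type arrays of 26 dpp than on any array of 17 dpp, while the elongating spermatid markers are high on 3 of the 4 arrays of 26 dpp and at 1.25 on the fourth, replicate 2 of the knockout.

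The nectins moved in opposite directions with age. Nectins are immunoglobulin-like adhesion molecules. In the mouse testis the product of Pvrl2 sits on the Sertoli cell and that of Pvrl3 on the spermatid, and the pair binds across the apical junction. Pvrl3 (current symbol Nectin3) was 12.8-fold higher at 26 than at 17 dpp in wild type testes, the larger of the 2 rises among the members, and Pvrl2 (Nectin2) was 4.13-fold lower. The array carries 3 probes for Pvrl3 that passed the background filter, shown here by their first 30 of 60 bases, 5′ to 3′, because all 3 were higher at 26 dpp, at separate places of the transcript. On mm9 they lie on the minus strand at chr16:46454777-46454836, chr16:46395102-46395161 and chr16:46394453-46394512.
Pvrl3 probe at transcript base 1162: tttgtccatccattgactgtcaattattct
Pvrl3 probe at transcript base 1773: tgagagacactgaggcatctaagtgatttc
Pvrl3 probe at transcript base 2422: ttagccaggtttccattcgctcgcacaaga

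On the probe that represents the gene, Pvrl3 lay at 2.61 and 0.63 in knockout and 2.39 and 2.99 in wild type testes at 26 dpp, against −1.32 and −0.87 in knockout and −0.72 and −1.24 in wild type testes at 17 dpp. All 4 arrays of 26 dpp were above all 4 of 17 dpp, with replicate 2 of the knockout the lowest of the older arrays. The age difference was 3.67 in wild type (SE 0.66, limma adjusted p = 0.0128) and 2.71 in Ip6k1-/- testes (SE 0.66, adjusted p = 0.0448). With every kept probe tested on its own, the Pvrl3 probes at bases 1162 and 2422 differed by 3.67 and 2.82 with age in wild type testes (limma adjusted p = 0.013 and 0.0135), where 43.4% of all 37807 kept probes passed. The probe at base 1773 was not well above background on either wild type array of 17 dpp, so it was at least 12.9-fold higher at 26 dpp. Its measured difference was 3.87 (limma adjusted p = 0.0161).

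Pvrl2 lay at 2.51 and 3.13 in knockout and 2.48 and 2.02 in wild type testes at 26 dpp, against 4.37 and 4.21 in knockout and 4.44 and 4.15 in wild type testes at 17 dpp. The 2 ages did not overlap in either genotype, and the differences were −2.05 in wild type (limma adjusted p = 0.00983) and −1.47 in Ip6k1-/- testes (adjusted p = 0.0344). Its second probe, at transcript base 1580, differed by −1.13 in wild type and −0.89 in Ip6k1-/- testes and passed in neither. Pvrl1 (Nectin1), a further nectin, lay at −0.71 and −0.67 in knockout and −0.59 and −0.69 in wild type testes at 26 dpp, against 0.85 and 0.24 in knockout and 0.06 and 0.29 in wild type testes at 17 dpp. It was lower at 26 dpp in Ip6k1-/- testes (−1.23, limma adjusted p = 0.0388), and the wild type difference of −0.81 missed the threshold (adjusted p = 0.0568). Mllt4 (current symbol Afdn) encodes afadin, which ties nectins to actin. Its age differences of 0.48 in wild type and 0.27 in Ip6k1-/- testes did not pass.

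The promoters of the 2 nectins are shown because the genes moved in opposite directions. They run from 250 bases before to 50 after the start, from RefSeq on GRCm38.p6, at chr16:46496918-46497217 for Pvrl3 and chr7:19749524-19749823 for Pvrl2, both on the minus strand and written 5′ to 3′ of the gene. Capitals mark a cAMP response element with the letters TGACGTCA, which starts at position 40 after the start in Pvrl2.
Pvrl3 promoter: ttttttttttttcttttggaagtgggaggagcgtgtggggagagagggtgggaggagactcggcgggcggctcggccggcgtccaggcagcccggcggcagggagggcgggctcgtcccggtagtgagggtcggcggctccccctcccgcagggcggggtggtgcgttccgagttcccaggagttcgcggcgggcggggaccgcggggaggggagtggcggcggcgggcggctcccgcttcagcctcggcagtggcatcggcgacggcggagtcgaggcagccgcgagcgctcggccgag
Pvrl2 promoter: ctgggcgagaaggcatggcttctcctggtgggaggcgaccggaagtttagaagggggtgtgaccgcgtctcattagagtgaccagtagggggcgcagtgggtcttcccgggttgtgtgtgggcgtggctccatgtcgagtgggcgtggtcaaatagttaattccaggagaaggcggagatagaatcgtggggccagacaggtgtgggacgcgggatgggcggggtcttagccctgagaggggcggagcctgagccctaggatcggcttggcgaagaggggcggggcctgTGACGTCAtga
The Pvrl3 promoter holds 5 GC boxes (GGGCGG, both strands searched) and the Pvrl2 promoter holds 3. RefSeq promoters were matched for 24 of the 34 members, 32 promoters in all. A GC box was found in 75% of these 32 promoters, against 35.7% of all 32851 promoters in the table. TGACGTCA was found in 1 of the 32, that of Pvrl2, and in 1.79% of all promoters. These matches describe letters in a window of 300 bases and were set against no binding data.

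**Figure D3:**
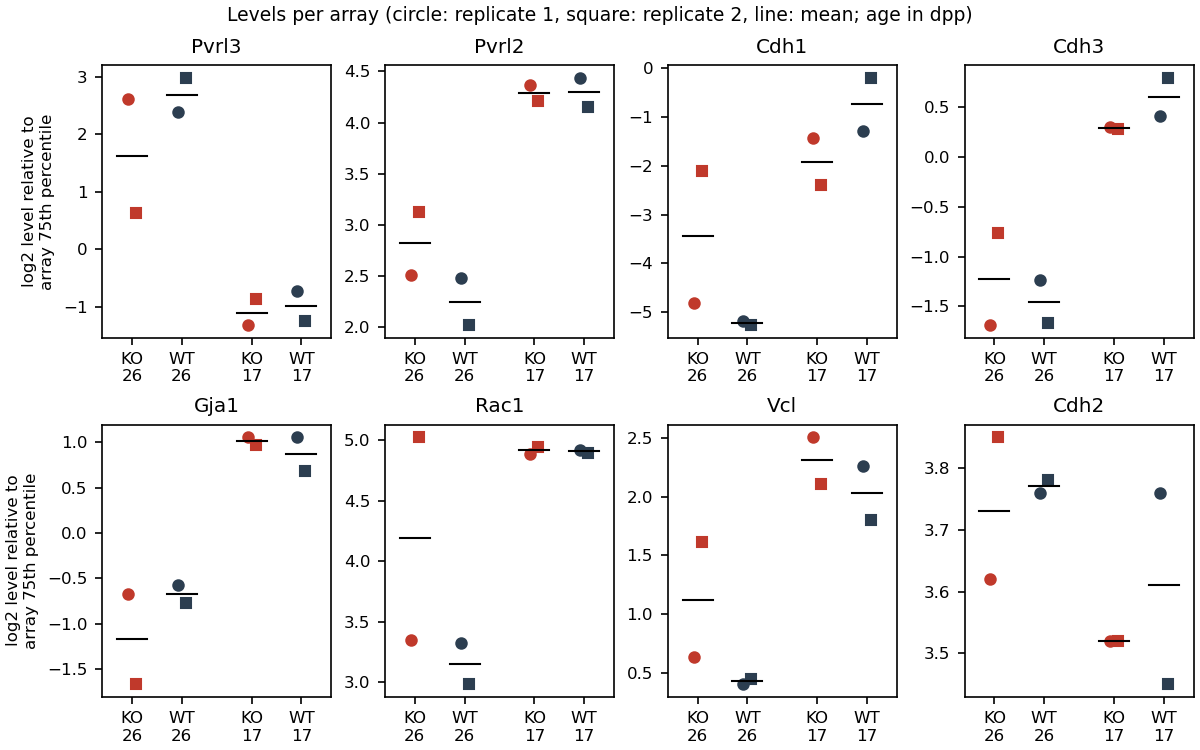
Log2 level relative to the array's 75th percentile for 8 members on each array, with circles for replicate 1, squares for replicate 2 and lines for the means of 2 arrays; red is Ip6k1-/- (KO), dark blue is wild type (WT), and the numbers are ages in dpp. The vertical scale differs between panels. Pvrl3 is higher on all 4 arrays of 26 dpp, Pvrl2, Cdh3 and Gja1 are lower on all 4, Rac1 of the second knockout replicate at 26 dpp lies at 5.03 beside the arrays of 17 dpp, and Cdh2 spans 3.45 to 3.85.

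Of the 8 cadherins and catenins, 5 were lower and 1 was higher at 26 than at 17 dpp in wild type testes, and the median was −1.28. Cadherins bind their like on the next cell, and catenins join their tails to actin. Cdh2, N-cadherin, the main classical cadherin of the Sertoli cell junction, was at 3.62 and 3.85 in knockout and 3.76 and 3.78 in wild type testes at 26 dpp, against 3.52 and 3.52 in knockout and 3.76 and 3.45 in wild type testes at 17 dpp. The wild type ages overlapped, and the differences of 0.16 in wild type and 0.21 in Ip6k1-/- testes did not pass (limma adjusted p = 0.581 and 0.529). Cdh1, E-cadherin of epithelia, lay at −4.81 and −2.10 in knockout and −5.18 and −5.27 in wild type testes at 26 dpp, against −1.43 and −2.40 in knockout and −1.29 and −0.19 in wild type testes at 17 dpp. Its probe was not well above background on either wild type array of 26 dpp. At the measured signals the level there was 22.4-fold lower than at 17 dpp (−4.49, SE 0.91, limma adjusted p = 0.0166). Under the alternatives, those leaving out an array among them, this difference ran from −5.04 to −2.44. In Ip6k1-/- testes the ages overlapped for Cdh1, and −1.54 did not pass (adjusted p = 0.263). The 12 measured of 13 markers of the epididymal epithelium summed to 33.4 and 9.03 in knockout and 25.8 and 50.6 in wild type testes at 26 dpp, and to 13.5 and 10.2 in knockout and 51.6 and 152 in wild type testes at 17 dpp. Their part in the Cdh1 values was not tested.

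Cdh3, P-cadherin, lay at −1.69 and −0.76 in knockout and −1.24 and −1.67 in wild type testes at 26 dpp, against 0.30 and 0.28 in knockout and 0.41 and 0.80 in wild type testes at 17 dpp. It was lower with age in both genotypes, by −2.06 in wild type (limma adjusted p = 0.0133) and −1.52 in Ip6k1-/- testes (adjusted p = 0.047). Ctnnb1, beta-catenin, lay at 2.39 and 3.86 in knockout and 2.38 and 2.17 in wild type testes at 26 dpp, against 3.89 and 3.87 in knockout and 3.91 and 3.83 in wild type testes at 17 dpp. Ctnna1, alpha-E-catenin, which connects beta-catenin with actin, lay at 3.34 and 4.50 in knockout and 3.39 and 3.09 in wild type testes at 26 dpp, against 4.91 and 4.79 in knockout and 4.87 and 4.82 in wild type testes at 17 dpp. Both catenins were lower on the 2 wild type arrays of 26 dpp than on any array of 17 dpp (−1.60, limma adjusted p = 0.0391 for Ctnnb1 and −1.61, adjusted p = 0.027 for Ctnna1). For both, the second knockout array of 26 dpp lay nearer to the arrays of 17 dpp. In Ip6k1-/- testes their differences of −0.76 and −0.93 did not pass.

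Ctnnd1, p120-catenin, which holds cadherins at the membrane, lay at 3.11 and 3.17 in knockout and 3.27 and 3.09 in wild type testes at 26 dpp, against 4.18 and 4.22 in knockout and 4.15 and 4.14 in wild type testes at 17 dpp. Here both knockout arrays of 26 dpp went with the wild type, and the differences were −0.97 in wild type (limma adjusted p = 0.0202) and −1.06 in Ip6k1-/- testes (adjusted p = 0.0303). Jup, plakoglobin, a catenin that also serves desmosomes, was the second member that passed as higher. It lay at −3.81 and −5.19 in knockout and −4.26 and −3.17 in wild type testes at 26 dpp, against −5.43 and −6.09 in knockout and −5.57 and −5.73 in wild type testes at 17 dpp. No array of 17 dpp was well above background. The probe met the background filter only through the wild type group of 26 dpp, the group tested as higher, so this call is not independent of the filter. At the measured signals Jup was 3.83-fold higher at 26 dpp in wild type testes (1.94, SE 0.58, limma adjusted p = 0.0396). Under the alternatives, those leaving out an array among them, this difference ran from 0.40 to 2.48. It did not pass in 10 of these 18 runs. In Ip6k1-/- testes only 1 of the 2 older arrays was well above background. The measured Jup difference there was 1.26 and did not pass (limma adjusted p = 0.181), and the dim older array keeps it from being a lower bound.

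Among 6 actin bundling and capping members, 3 were lower with age in wild type testes, and all 6 lay below 0 with a median of −1.41. Espn, espin, which gives the actin bundles of the ectoplasmic specialization their tight packing, did not pass: it was −0.92 in wild type (limma adjusted p = 0.0901) and −0.64 in Ip6k1-/- testes. It lay at 0.79 and 1.66 in knockout and 1.07 and 0.69 in wild type testes at 26 dpp, against 1.82 and 1.91 in knockout and 2.07 and 1.51 in wild type testes at 17 dpp, with no overlap of the ages in either genotype. Its 2 probes, which overlap on the transcript, gave −0.92 and −0.91. Pls3, plastin 3, an X-linked actin bundler, was at 0.42 and 2.04 in knockout and 0.57 and 0.16 in wild type testes at 26 dpp, against 2.31 and 2.12 in knockout and 2.32 and 2.96 in wild type testes at 17 dpp. Its wild type difference was −2.28 (limma adjusted p = 0.0254), a 4.85-fold lower level.

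Actn4, an alpha-actinin that crosslinks actin, lay at 1.80 and 3.18 in knockout and 1.90 and 1.60 in wild type testes at 26 dpp, against 3.24 and 3.14 in knockout and 3.19 and 3.33 in wild type testes at 17 dpp. Myo7a, an actin motor, lay at 1.29 and 2.34 in knockout and 1.29 and 1.10 in wild type testes at 26 dpp, against 3.08 and 2.96 in knockout and 2.80 and 2.54 in wild type testes at 17 dpp. Both were lower with age in wild type testes (−1.51, limma adjusted p = 0.0408 for Actn4 and −1.48, adjusted p = 0.0281 for Myo7a), and neither passed in Ip6k1-/- testes. Eps8, which caps and bundles actin, differed by −1.33 in wild type and −1.33 in Ip6k1-/- testes and just missed the threshold in wild type (adjusted p = 0.0524). Its second probe, at transcript base 4483, passed in both when each probe was tested alone (−1.53, limma adjusted p = 0.0228 in wild type, and −1.65, adjusted p = 0.0351 in Ip6k1-/- testes). Actn1, the other alpha-actinin, differed by −1.06 in wild type testes and did not pass.

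**Figure D4:**
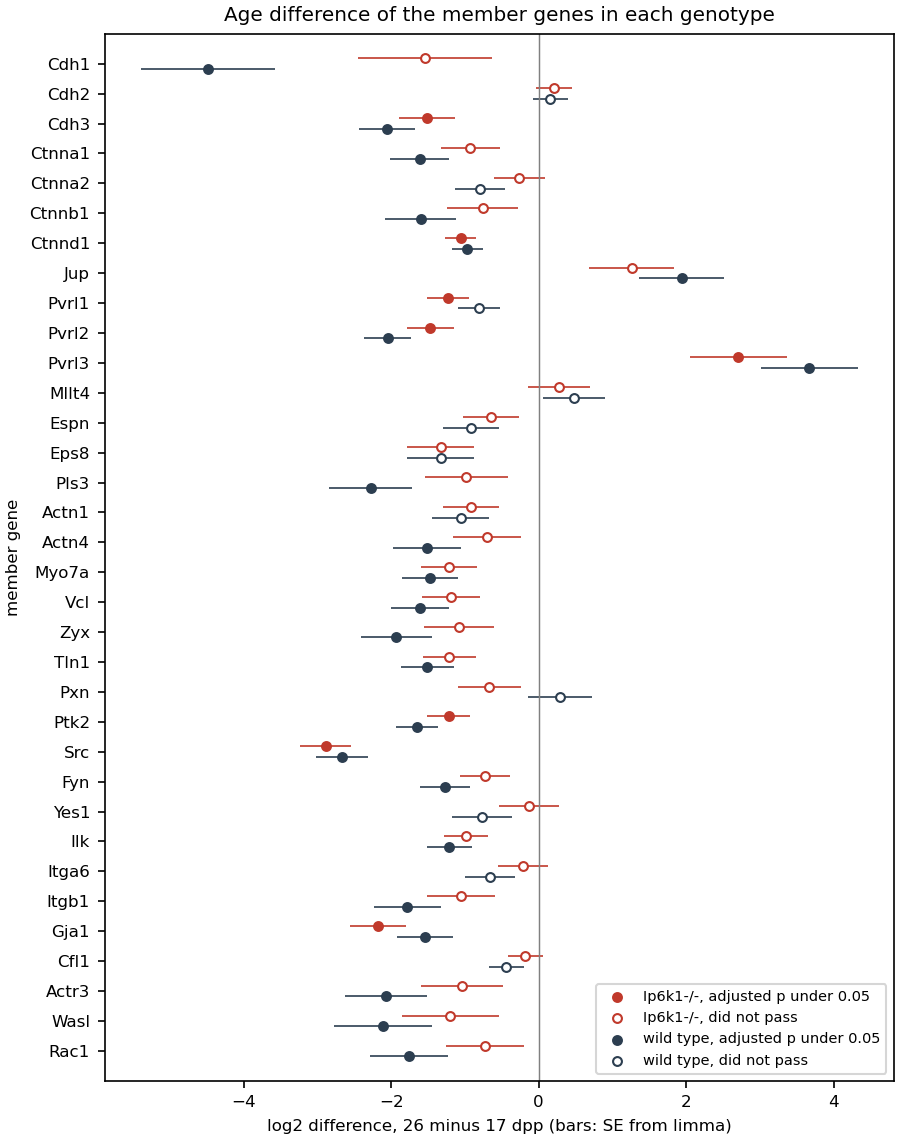
Log2 difference between 26 and 17 dpp for each of the 34 members, in Ip6k1-/- (red, upper point) and wild type testes (dark blue, lower point), with bars for the standard error from limma and filled points where the adjusted p is under 0.05. In wild type testes 23 points are filled, 21 left of 0 and 2 right of it (Jup and Pvrl3), and in Ip6k1-/- testes 8 are filled.

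Of 4 plaque adaptors, 3 were lower with age in wild type testes. Zyx, zyxin, lay at 3.04 and 4.39 in knockout and 3.15 and 2.65 in wild type testes at 26 dpp, against 4.97 and 4.61 in knockout and 4.83 and 4.83 in wild type testes at 17 dpp. Tln1, talin 1, which joins integrins to actin, lay at 2.22 and 3.09 in knockout and 2.49 and 2.03 in wild type testes at 26 dpp, against 3.88 and 3.86 in knockout and 3.65 and 3.88 in wild type testes at 17 dpp. The ages did not overlap in either genotype for these adaptors, and the wild type differences passed (−1.93, limma adjusted p = 0.0258 for Zyx and −1.51, adjusted p = 0.0238 for Tln1). Both probes of Tln1 passed in wild type testes when tested alone. Pxn, paxillin, a scaffold of adhesion sites, did not follow: its wild type difference was 0.29 and its difference in Ip6k1-/- testes −0.67, and neither passed.

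Vcl, vinculin, an adaptor between catenins or talin and actin, lay at 0.63 and 1.61 in knockout and 0.40 and 0.45 in wild type testes at 26 dpp, against 2.51 and 2.11 in knockout and 2.26 and 1.80 in wild type testes at 17 dpp. The wild type difference was −1.61 (limma adjusted p = 0.0253), and in Ip6k1-/- testes −1.19 did not pass (adjusted p = 0.0901). Its 2 probes read opposite ways, as did those of Ctnna2, alpha-N-catenin, and their first 30 of 60 bases are shown for that reason. The Vcl probes lie on the plus strand of mm9, at chr14:21852105-21852164 and, with a span longer than the probe, at chr14:21848574-21849035. The Ctnna2 probes lie on the minus strand at chr6:76831751-76831807 and chr6:76832544-76832603.
Vcl probe at transcript base 4438: ggcaatcttgtctgggagactagcatttgc
Vcl probe at transcript base 3009: taagcggattagaaccaatctcttacaggt
Ctnna2 probe at transcript base 3851: tctaaacttgaactctgactttgctagaca
Ctnna2 probe at transcript base 3157: aagaaacacatttcacctgtgcaggcttta

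The Vcl probe at base 3009 lay at −1.73 and −3.82 in knockout and −1.80 and −1.20 in wild type testes at 26 dpp, against −2.45 and −3.10 in knockout and −2.77 and −3.11 in wild type testes at 17 dpp. It differed by 1.44 with age in wild type testes and by 0.00 in Ip6k1-/- testes, and did not pass in either (limma adjusted p = 0.126 and 1). The Ctnna2 probe at base 3157 lay at −0.54 and −1.79 in knockout and −0.84 and −0.38 in wild type testes at 26 dpp, against −1.43 and −1.40 in knockout and −1.29 and −2.32 in wild type testes at 17 dpp. Its wild type difference of 1.19 did not pass. The brighter Ctnna2 probe, at base 3851, lay at 1.44 and 2.29 in knockout and 1.31 and 1.22 in wild type testes at 26 dpp, against 2.07 and 2.19 in knockout and 2.22 and 1.88 in wild type testes at 17 dpp. Its wild type difference of −0.79 did not pass either. Of the 15 members with several kept probes, the probes shared the sign of the wild type age difference in 13 and had opposite signs in these 2. Which transcripts each probe detects cannot be told from the files.

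The Vcl promoter is printed because it alone among the 32 matched promoters holds a CArG box, the sequence bound by serum response factor, in capitals below. It lies on the plus strand of GRCm38.p6 at chr14:20929148-20929447 (RefSeq), and the box starts at position −227 relative to the start.
Vcl promoter: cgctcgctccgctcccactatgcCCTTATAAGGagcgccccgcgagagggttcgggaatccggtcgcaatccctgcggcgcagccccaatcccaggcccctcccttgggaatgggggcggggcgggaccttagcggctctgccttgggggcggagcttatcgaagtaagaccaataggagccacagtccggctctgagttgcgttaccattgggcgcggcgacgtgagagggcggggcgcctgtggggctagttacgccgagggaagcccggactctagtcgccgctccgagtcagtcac
A CArG box was found in 1.63% of all promoters in the table, with both strands searched.

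**Figure D5:**
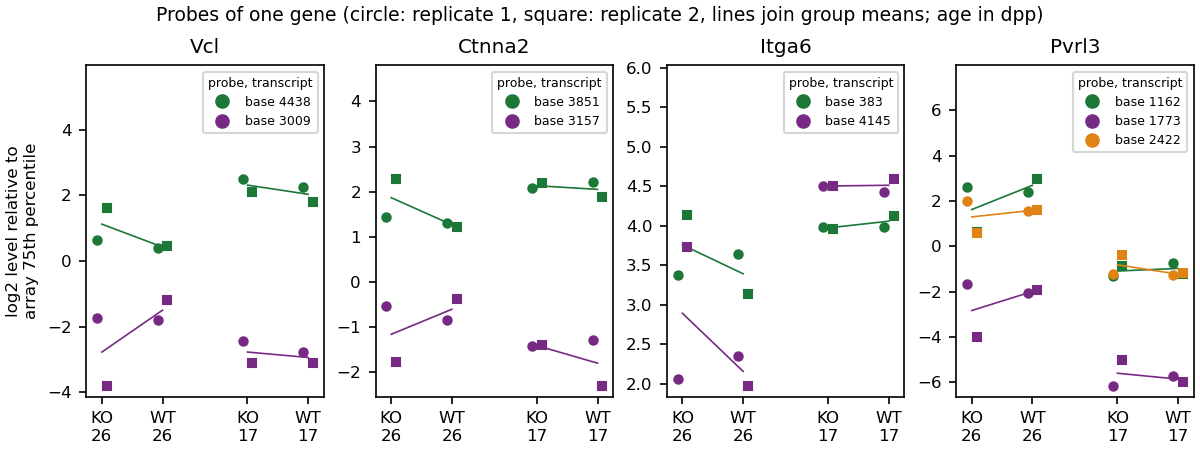
Log2 level relative to the array's 75th percentile for each kept probe of Vcl, Ctnna2, Itga6 and Pvrl3 on each array, KO for Ip6k1-/- and WT for wild type, numbers giving age in dpp; circles are replicate 1, squares replicate 2, lines join the means of the 2 genotypes of an age, and colours are probes named by their first transcript base. The 2 probes of Vcl and of Ctnna2 run in opposite directions between wild type ages, those of Itga6 run down by −0.66 and −2.36, and all 3 Pvrl3 probes run up.

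Of 5 kinases, 4 were lower with age in wild type testes and all 5 lay below 0. Ptk2, focal adhesion kinase, lay at −0.57 and 0.10 in knockout and −0.56 and −0.69 in wild type testes at 26 dpp, against 0.96 and 1.01 in knockout and 1.06 and 0.99 in wild type testes at 17 dpp. It was lower in both genotypes (−1.65, limma adjusted p = 0.012 in wild type and −1.22, adjusted p = 0.0412 in Ip6k1-/- testes). These values are those of the brightest of its 3 kept probes, at transcript base 4257, and the other probes did not pass in either genotype when tested alone. The probe at base 999, well above background on all 8 arrays, differed by −0.88 in wild type (limma adjusted p = 0.118) and 0.03 in Ip6k1-/- testes (adjusted p = 0.964). The dim probe at base 3494 was at least 1.55-fold lower in wild type testes, where its measured difference was −1.69 (limma adjusted p = 0.119). In Ip6k1-/- testes its measured difference was −1.27 (limma adjusted p = 0.282), with only 1 array of 17 dpp well above background. Src, a tyrosine kinase that acts with Ptk2, lay at −7.87 and −7.52 in knockout and −7.66 and −7.66 in wild type testes at 26 dpp, against −4.34 and −5.27 in knockout and −4.98 and −5.00 in wild type testes at 17 dpp. No array of 26 dpp was well above background, so the level was at least 1.36-fold lower in wild type and at least 1.59-fold lower in Ip6k1-/- testes. These folds were not tested. The limma test used the measured differences from the dim signals, −2.67 in wild type (adjusted p = 0.00781) and −2.89 in Ip6k1-/- testes (adjusted p = 0.0162).

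Fyn, a kinase of the Src family, lay at −1.05 and −0.30 in knockout and −1.23 and −1.30 in wild type testes at 26 dpp, against 0.21 and −0.09 in knockout and 0.25 and −0.24 in wild type testes at 17 dpp. Ilk, integrin-linked kinase, lay at 1.26 and 1.95 in knockout and 1.32 and 1.14 in wild type testes at 26 dpp, against 2.71 and 2.48 in knockout and 2.52 and 2.37 in wild type testes at 17 dpp. Both were lower on every array of 26 dpp than on any of 17 dpp, and the wild type differences passed (−1.27, limma adjusted p = 0.0313 for Fyn and −1.21, adjusted p = 0.0266 for Ilk). Yes1, a further Src family kinase, differed by −0.77 in wild type testes and did not pass, and its second knockout array at 26 dpp, at −0.52, was the highest of all 8.

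Integrins bind matrix and partner cells, and Itgb1 encodes the beta 1 chain. It lay at 0.13 and 1.50 in knockout and 0.09 and −0.08 in wild type testes at 26 dpp, against 2.04 and 1.70 in knockout and 1.87 and 1.71 in wild type testes at 17 dpp. It was lower with age in wild type testes (−1.78, limma adjusted p = 0.0287), and in Ip6k1-/- testes −1.05 did not pass. Itga6, the alpha 6 chain that pairs with beta 1 at the ectoplasmic specialization, gave different sizes on its 2 probes, on the plus strand of mm9 at chr2:71690633-71690692 and chr2:71694756-71694815. Their first 30 of 60 bases were as follows.
Itga6 probe at transcript base 383: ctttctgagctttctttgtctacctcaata
Itga6 probe at transcript base 4145: gagaatgagaacctgggaggtcttgttgtt
The probe at base 383, which represents the gene, lay at 3.38 and 4.14 in knockout and 3.65 and 3.14 in wild type testes at 26 dpp, against 3.99 and 3.96 in knockout and 3.99 and 4.13 in wild type testes at 17 dpp. Its wild type difference of −0.66 did not pass. The probe at base 4145 lay at 2.06 and 3.73 in knockout and 2.35 and 1.97 in wild type testes at 26 dpp, against 4.51 and 4.50 in knockout and 4.43 and 4.60 in wild type testes at 17 dpp. It passed when tested alone (−2.36, limma adjusted p = 0.0217). Both probes separated the wild type ages.

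Gja1 encodes connexin 43, the main gap junction protein between Sertoli cells and germ cells. It lay at −0.67 and −1.67 in knockout and −0.57 and −0.77 in wild type testes at 26 dpp, against 1.06 and 0.97 in knockout and 1.06 and 0.68 in wild type testes at 17 dpp. It was lower with age in wild type (−1.54, limma adjusted p = 0.0256) and in Ip6k1-/- testes (−2.18, adjusted p = 0.024, a 4.54-fold lower level). Replicate 2 of the knockout at 26 dpp was the lowest of all 8 arrays for this gene, away from the arrays of 17 dpp.

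Of the 4 members that turn over or branch actin, 3 were lower with age in wild type testes, and the median was −1.92. Actr3, a subunit of the Arp2/3 complex that nucleates branches, lay at 2.50 and 4.21 in knockout and 2.58 and 2.38 in wild type testes at 26 dpp, against 4.57 and 4.23 in knockout and 4.58 and 4.52 in wild type testes at 17 dpp. Wasl, neuronal WASP, which activates that complex, lay at −1.32 and 0.73 in knockout and −1.10 and −1.48 in wild type testes at 26 dpp, against 0.57 and 1.24 in knockout and 0.79 and 0.85 in wild type testes at 17 dpp. Rac1, a small GTPase upstream of actin branching, lay at 3.35 and 5.03 in knockout and 3.32 and 2.98 in wild type testes at 26 dpp, against 4.89 and 4.95 in knockout and 4.92 and 4.90 in wild type testes at 17 dpp. For these genes replicate 1 of the knockout lay beside the wild type arrays of its age and replicate 2 beside the arrays of 17 dpp. The wild type differences were −2.07 for Actr3, −2.11 for Wasl and −1.76 for Rac1 (limma adjusted p = 0.0299, 0.0445 and 0.041), and none of the 3 passed in Ip6k1-/- testes. The second Wasl probe, at transcript base 3664 and well above background on all 8 arrays, passed in neither genotype when tested alone. It differed by −1.43 in wild type (limma adjusted p = 0.0651) and −0.35 in Ip6k1-/- testes. Cfl1, cofilin 1, which severs filaments, differed by −0.44 in wild type testes and did not pass, and its 3 probes ranged from −0.59 to −0.28.

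In Ip6k1-/- testes, 8 members passed between 26 and 17 dpp, where 15.6% of all genes passed, 7.93% lower and 7.63% higher. Cdh3, Ctnnd1, Pvrl1, Pvrl2, Ptk2, Src and Gja1 were lower and Pvrl3 was higher. The median of the members was −0.98, against −0.31 over all genes, and 30 of the 34 lay below 0, against 62.7% of all genes. Both knockout arrays of 26 dpp lay below both of 17 dpp for 21 members and above them for 3. Such a separation held for 10030 and 5961 of all 26583 genes. Without replicate 2 of the knockout at 26 dpp, 29 members passed, 27 lower and 2 higher, where 59.7% of all genes passed, and the median was −1.50. In that fit the median over all genes was −0.50, and the lone knockout array is assumed to vary like the other groups. The 8 members that passed on both arrays passed again, with adjusted p from 0.00216 to 0.0187 (limma), and the other 21 had adjusted p from 0.00282 to 0.0449.

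Without that array the cadherin differences in Ip6k1-/- testes were −2.89 for Cdh1 and −1.99 for Cdh3, and both passed. Those of the catenins were −1.51 for Ctnna1, −0.69 for Ctnna2, −1.49 for Ctnnb1 and −1.09 for Ctnnd1, and all passed. Jup was at least 3.19-fold higher, with a measured difference of 1.95. The nectin differences were −1.25 for Pvrl1, −1.78 for Pvrl2 and 3.71 for Pvrl3. Espn (−1.08), Eps8 (−1.71), Pls3 (−1.79), Actn1 (−1.33), Actn4 (−1.39) and Myo7a (−1.73), which bundle, cap or pull on actin, all passed as lower. The adaptors Vcl (−1.68), Zyx (−1.76) and Tln1 (−1.65) were lower too. These values are those of the brightest probe, and other probes differed. The Vcl probe at base 3009 was higher on replicate 1 of 26 dpp (−1.73) than on the knockout arrays of 17 dpp (−2.45 and −3.10). So was the Ctnna2 probe at base 3157 (−0.54 against −1.43 and −1.40). The Itga6 probe at base 4145 was lower (2.06 against 4.51 and 4.50). Among the kinases, Ptk2 (−1.56), Fyn (−1.11), Yes1 (−0.71) and Ilk (−1.33) were lower. Src was at least 1.79-fold lower, with a measured difference of −3.07. Itgb1 (−1.74), Gja1 (−1.68), Actr3 (−1.90), Wasl (−2.23) and Rac1 (−1.57) also passed as lower. The members that did not pass without it were Cdh2 (0.10), Cfl1 (−0.37), Itga6 (−0.60), Mllt4 (−0.30) and Pxn (−0.26), and the Mllt4 difference was 0.27 with it.

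The knockout and wild type groups were not distinguished at either age for any member. At 26 dpp 0 of 34 members passed, where 0.00752% of all genes (2 genes) passed, and the smallest adjusted p among the members was 0.533 (limma). An unadjusted p under 0.05 was reached by 0 members and by 2.45% of all genes. The median difference was 0.39, against 0.09 over all genes, and 26 members lay above 0, as did 14693 of all 26583 genes. The 2 knockout arrays lay above both wild type arrays for 9 members (Cdh1, Ctnna2, Ctnnb1, Pvrl2, Myo7a, Vcl, Fyn, Itgb1 and Rac1) and below both for Pxn, where 15.8% and 16.6% of all genes did so. The widest differences were 1.77 for Cdh1 (SE 0.91, limma adjusted p = 0.533) and −1.07 for Pvrl3 (SE 0.66, adjusted p = 0.533), and without replicate 2 the Cdh1 difference was 0.42.

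Taken as a median, the members' difference at 26 dpp was that of a single array, replicate 2 of the knockout. Replicate 1 of the knockout differed from the wild type mean by a median of 0.00 over the 34 members, with a range from −0.47 to 0.42, and lay nearer to the wild type of 26 than of 17 dpp for 31 of them. Replicate 2 differed by a median of 0.81, with a range from −2.06 for Pvrl3 to 3.13 for Cdh1, and lay nearer to the wild type of 17 dpp for 23. The other 11 were Cdh2, Cdh3, Ctnnd1, Pvrl1, Pvrl2, Mllt4, Eps8, Actn1, Ptk2, Src and Gja1. Without replicate 2 again 0 members passed (limma), where 0.0376% of all genes passed, and the median was 0.00. Without replicate 1, 21 members passed, 19 higher and Gja1 and Pvrl3 lower, where 45.5% of all genes passed. On replicate 2 the markers of round spermatids (16 of 16 measured) summed to 7.06, against 238 on replicate 1 and 199 and 319 in wild type testes of that age. Those of pachytene and diplotene spermatocytes (13 of 14 measured) summed to 698, against 935 on replicate 1 and 1030 and 1070 in wild type testes. The part of these sums, and of the Sertoli cell and elongating spermatid sums above, in the members' levels on this array was not tested.

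At 17 dpp 0 of 34 members passed, where 0.094% of all genes (25 genes) passed. The smallest adjusted p among the members was 1 (limma), and an unadjusted p under 0.05 was reached by 0 members and by 1.44% of all genes. The median was 0.01, against 0.02 over all genes, and differences ran from −1.18 for Cdh1 to 0.37 for Pvrl1. The knockout arrays lay above both wild type arrays for Ctnnd1 and Myo7a and below both for Cdh1, Cdh3, Pls3 and Itga6, where 16.1% and 12.8% of all genes did so. Myo7a alone of the 34 was on the same side at both ages: it was higher on the knockout arrays by 0.62 at 26 dpp and 0.35 at 17 dpp, as were 2.59% of all genes, and passed at neither (limma adjusted p = 0.533 and 1). Without replicate 2 the difference at 26 dpp was 0.10, and replicate 1 of the knockout and replicate 1 of the wild type both lay at 1.29. The change of the knockout effect between the ages passed for 0 of 34 members and for 0% of all genes (limma), with a smallest adjusted p of 0.781. An unadjusted p under 0.05 was reached by 0 members and by 1.9% of all genes. Without replicate 1 of the knockout at 26 dpp, 13 members passed for that change, 11 upward and 2 downward, where 32.8% of all genes passed. Without replicate 2, 0 members passed (limma), where 0.00752% of all genes did. With 2 arrays in a group, a p above the threshold does not show that the groups were alike.

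Further genes of the same pathway, other junction and actin genes outside the 34, were read from a list of 113, of which 109 were measured. In wild type testes 48 were lower and 7 higher at 26 than at 17 dpp, where 26.1% and 18.9% of all genes were, with a median of −1.17, against −0.46 over all genes. Among those that passed, the 4 widest falls were those of Plekha7, an adherens junction protein that binds p120-catenin (−2.57), Wasf1, a WAVE activator of Arp2/3 (−2.46), Cadm3, a nectin-like adhesion molecule (−2.31), and Capg, an actin capper (−2.26). The 4 widest rises that passed were those of Ctnna3, alpha-T-catenin (5.35), Itga2, an integrin chain (5.24), Cadm2, a nectin-like molecule (3.92), and Fscn3, the testis fascin (3.90). In Ip6k1-/- testes 13 were lower and 3 higher, where 7.93% and 7.63% of all genes were. The lower ones were led by the actin crosslinker Lima1 (−1.87), the integrin chain Itgb3 (−1.83), the GTPase Rhob (−1.80) and Parva, a partner of Ilk (−1.62). The 3 that were higher were Cadm2 (2.86), the adhesion scaffold Git1 (1.66) and Dnm2, a dynamin of endocytosis (0.88). Without replicate 2 of the knockout at 26 dpp, 61 were lower and 10 higher, where 59.7% of all genes passed, and the median was −1.12. The 7 named genes then differed by −1.68 for Lima1, −2.29 for Itgb3, −1.89 for Rhob, −2.15 for Parva, 3.73 for Cadm2, 1.95 for Git1 and 0.86 for Dnm2. Between knockout and wild type 0 of 109 passed at 26 dpp and 0 at 17 dpp, with 0 and 2 at an unadjusted p under 0.05 (limma).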

How the data were processed

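Total RNA of whole testes was extracted with TRIZOL and labelled with Cy3 in an in vitro transcription from oligo-dT primed cDNA (per the labels' protocols). The authors deposited scanner output made with Agilent Feature Extraction 11.5.1.1, per the file headers. Its processed, mean and background signals are intensity values on a linear scale, the processed one already corrected for background, and other deposited columns hold flags. The authors' deposited value table holds log2 values of unstated scale and centring. The medians of its columns were −3.62 and −3.84 (Ip6k1-/-) and −3.59 and −3.64 (wild type) for 26 dpp, and −3.67 and −3.63 (Ip6k1-/-) and −3.69 and −3.69 (wild type) for 17 dpp. Set against the scanner values, these columns followed log2 of the processed signal (r of 0.999906 to 0.999946) and lay 0.131 to 0.213 above the scaling used here, so probes were not centred. How the authors combined spots is not known, and one-colour values have no direction.

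There were 59305 non-control spots for 55681 probes on an array. Spots with an outlier flag (103 to 200 an array) were dropped, 0 were saturated, and 58.8% to 64.6% of probes exceeded background by the scanner's flag. The analysed level is the log2 processed signal from which log2 of the array's 75th percentile was subtracted. The filter required that flag on each of the 2 arrays of some group, which kept 37807 probes and, with the brightest kept probe standing for its gene, 26583 genes. A further 94 probes lacked a value on some array. Symbols came through RefSeq accessions for 27509 probes, as current symbols for 3549, and as the file's name for 24623. The members had 54 probes, 52 of them kept, with mm9 positions from the files and no exon or UTR assigned. The number of arrays, 2 a group, limits the precision.

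The model, limma 3.58.1 under R 4.3.3 (files read with the package data.table, version 1.17.8), had a mean for each group over all 8 arrays, two-sided tests and Benjamini-Hochberg adjustment over all genes, and a gene passed at an adjusted p under 0.05. It was also run on simulated data with normal noise, the same spread of a gene on all 8 arrays and few changed genes. These data differ from that setting, so the run does not bear on the calls made here. The 5 comparisons were Ip6k1-/- against wild type at each age, 26 against 17 dpp in each genotype, and the change of the first effect between ages, and they share groups. For a fold given as "at least", all arrays of 1 of the compared groups were dim. Each of these dim arrays counted at its own signal or at the lowest signal that exceeded background there, whichever was higher. Such a fold allows for the dim signal and not for the spread between arrays. It was not tested itself, and any p given for the gene or probe belongs to the measured difference. Where the dim arrays' own signals were higher, or only 1 array of a group was dim, the measured difference is given. Alternatives were normexp (offset 50) with percentile or quantile scaling, the authors' values, other filters, only the 4 arrays compared, a replicate block, array weights, a variance trend, the mean of a gene's probes, and leaving out each array. The fit of single probes, centring on the median of all genes, and the fit of the other gene lists without replicate 2 of the knockout at 26 dpp were added after seeing the data. All arrays shared a slide and a scan time, and the first index of the position on the slide differed between ages, so position and age cannot be told apart. The members and the lists were chosen with earlier results of these data known. Array values are given for members that passed or kept 1 side at both ages, and for a few others where they are described, and up to 4 further junction genes are named in each direction.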

Additional observations from a re-analysis of the deposited data

Results flagged for a closer look

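Cdh1 was the member whose knockout effect changed sign between ages on every array. Both knockout arrays lay above both wild type arrays at 26 dpp (1.77) and below both at 17 dpp (−1.18), a change of 2.95 on the log2 scale (SE 1.28). The change itself did not pass (limma adjusted p = 0.781). In wild type testes of 26 dpp its probe did not exceed background. At the measured signals the knockout mean there was 3.41-fold higher, which did not pass (SE 0.91, limma adjusted p = 0.533). Replicate 1 of the knockout lay 0.42 and replicate 2 lay 3.13 above the wild type mean of that age. Without replicate 2 the difference at 26 dpp was 0.42. The epididymal epithelium markers (12 of 13 measured) summed to 13.5 and 10.2 in knockout and 51.6 and 152 in wild type testes at 17 dpp, and to 33.4 and 9.03 in knockout and 25.8 and 50.6 in wild type testes at 26 dpp. At 17 dpp 6 of the 12 passed as lower in the knockout (limma), where 0.094% of all genes passed in either direction. The part of these markers in the Cdh1 values was not tested.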

How the results depend on the processing

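No member that passed changed direction under any alternative run, and signs changed under some of them for Cdh2, Ctnna2, Mllt4 and Pxn in the wild type age comparison, none of which passed. Sizes were less stable for some members that passed there. The smallest differences under any alternative were −0.08 for Vcl (−1.61 in the main fit), −0.35 for Src (−2.67) and 0.40 for Jup (1.94). The alternatives include the mean of a gene's probes, and the Vcl probes differed by −1.61 and 1.44. Src was dim at 26 dpp and Jup at 17 dpp. In that comparison the number of members that passed was 23, and 17 to 31 under the alternatives that keep all arrays, with 17 in the fit with a replicate block, 29 with only the 4 arrays compared and 31 with array weights; leaving out arrays gave 0 to 31. The median of all genes moved with the scaling, to −0.28 after quantile normalization and −0.56 after centring on the median of all genes, beside −0.46, and the members' median moved with it, to −1.31 and −1.59. In Ip6k1-/- testes the 8 members became 5 with no filter on dim probes, 2 with the replicate block, 0 with only the 4 arrays compared and 0 with array weights; leaving out arrays gave 0 to 29, and medians from −1.50 to −0.36. For Ip6k1-/- against wild type at 26 dpp leaving out arrays gave 0 to 21 members and medians from 0.00 to 0.81, and for the change of that effect between ages 0 to 13 members and medians from 0.04 to 0.81; the other alternatives gave 0. At 17 dpp all gave 0. The causes were not tested. Same-numbered replicates did not deviate together (r of −0.401 to 0.11), so the numbers are taken as names. Only the 4 arrays compared gives no value for the change between ages, and a filter that asks for signal over background on each of the 8 arrays keeps 31 members.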
